A study of Mus musculus with 9 samples.

Results

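Interferon regulatory factors are transcription factors that share a DNA-binding domain with conserved tryptophans. The family was taken here as the 8 genes Irf1, Irf2, Irf3, Irf4, Irf5, Irf7, Irf8 and Irf9, found by symbol through the Ensembl identifiers of the count tables, out of 47729 genes listed. All 8 had enough reads to be tested, among 13223 genes tested in all.

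The libraries were RNA-seq of sorted peritoneal macrophages, 3 for each of 3 populations. Every mouse was heterozygous for the Cx3cr1CreERT2-IRES-EYFP/+ allele, in which a Cre that tamoxifen switches on is driven by the Cx3cr1 promoter, and for Rosa26-stopfl-tdTomato/+, a red reporter that Cre switches on. Every mouse was also injected into the peritoneum with IL-4 complexes, 5 µg of the cytokine bound to 25 µg of antibody, every other day from 4 days ahead of the harvest, which drives macrophages into alternative activation. Converted macrophages came from mice that were given 2 ml of thioglycollate, a sterile irritant whose injection brings in monocytes from blood, and fed tamoxifen for 10 weeks. Resident macrophages had no group treatment in the labels. Monocyte-derived macrophages were taken 4 days after 2 ml of thioglycollate. The sources used here give no age, sort gates or number of mice.

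Family members divide by role. Irf3 and Irf7 are switched on by phosphorylation downstream of nucleic acid sensors and induce type I interferon genes. Secreted interferon then acts through its receptor on STAT factors, and Stat2 joins Irf9 in the complex ISGF3, which binds interferon-stimulated response elements. Irf1 activates, and Irf2 largely represses, genes through similar elements, while Irf4, Irf5 and Irf8 are best known from leukocyte differentiation: Irf5 from inflammatory macrophages, Irf4 from alternative activation by IL-4, and Irf8 from monocytes and dendritic cells.

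The libraries held 15220884 to 20496258 reads in genes, and 17871 to 19922 genes had at least 1 read. The macrophage receptor genes Adgre1 and Csf1r averaged 3077 and 1120 CPM (reads scaled to library size) in converted, 2978 and 1105 CPM in resident, and 343.3 and 1095 CPM in monocyte-derived libraries, while Fcgr1, another macrophage marker, stood at 0.467, 0.538 and 15.9 CPM in the same order. Gata6, the factor of resident cavity macrophages, averaged 160.9 CPM in converted, 160.3 CPM in resident and 1.43 CPM in monocyte-derived libraries. Sex-linked transcripts split the libraries too: Xist had 0 reads in converted, 2 in resident and 3247 in monocyte-derived libraries, and the Y-linked Ddx3y had 5190, 5218 and 0 reads in the same order. Sex and origin therefore cannot be told apart in any comparison with monocyte-derived libraries. Thioglycollate was given to converted and monocyte-derived but, per the labels, not to resident groups, and tamoxifen was named for the converted group alone. In these bulk samples, fewer cells of a type and less RNA per cell cannot be told apart.

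Promoter windows of the members were searched for elements that STAT and IRF factors are known to bind. The RefSeq table (GRCm38.p6) held all 8 genes in 11 windows of 300 bases, each running from 250 bases before a transcription start to 50 after it. Both strands were searched for GAAANNGAA, the core of the interferon-stimulated response element, for TTCNNNGAA, the site bound by dimers of activated STAT factors, and for GGAANNGAA, a composite ETS and IRF element. These letters occurred in 8.55%, 8.29% and 8.25% of all 32817 windows in the table. The STAT-type letters were present in a window of Irf1, Irf2 and Irf8, and the other motifs in that of Irf2 alone, so 3 of 8 members had any match. The second windows of Irf1 and Irf8 held none. The shares above are per window and per motif, so they give no background for a count of members with any match. The 3 stretches with matches are shown on the plus strand with matched bases in capitals.
Irf1 chr11:53769909-53769947: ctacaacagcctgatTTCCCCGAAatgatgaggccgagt
Irf2 chr8:46739495-46739544: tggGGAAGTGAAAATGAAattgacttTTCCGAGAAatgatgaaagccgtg
Irf8 chr8:120736172-120736228: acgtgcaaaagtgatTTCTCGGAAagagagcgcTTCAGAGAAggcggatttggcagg
In Irf1 the STAT-type match began at position -90 relative to the start. Irf2 had its composite match at -247, overlapping an interferon-response match at -241, and its STAT-type match at -224. Irf8 had STAT-type matches at -171 and -153. A match describes letters and does not show binding.

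At an adjusted p under 0.05, Irf3 and Irf4 passed in no comparison and each other member passed in some. Calls were common: 50.7% of all genes passed in converted and 50.7% in resident against monocyte-derived libraries. In converted against resident libraries 6.07% passed. The share of all genes passing in any comparison was not counted. By fold between population means, Irf7 had the widest range and Irf8 the next, and they ran in different orders: Irf7 was highest in resident and lowest in monocyte-derived libraries, whereas Irf8 was highest in monocyte-derived and lowest in converted libraries. Irf1, Irf2 and Irf9 had their highest mean in resident libraries, Irf5 in monocyte-derived libraries, and Irf3 and Irf4 stayed within a narrow band.

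**Figure D1:**
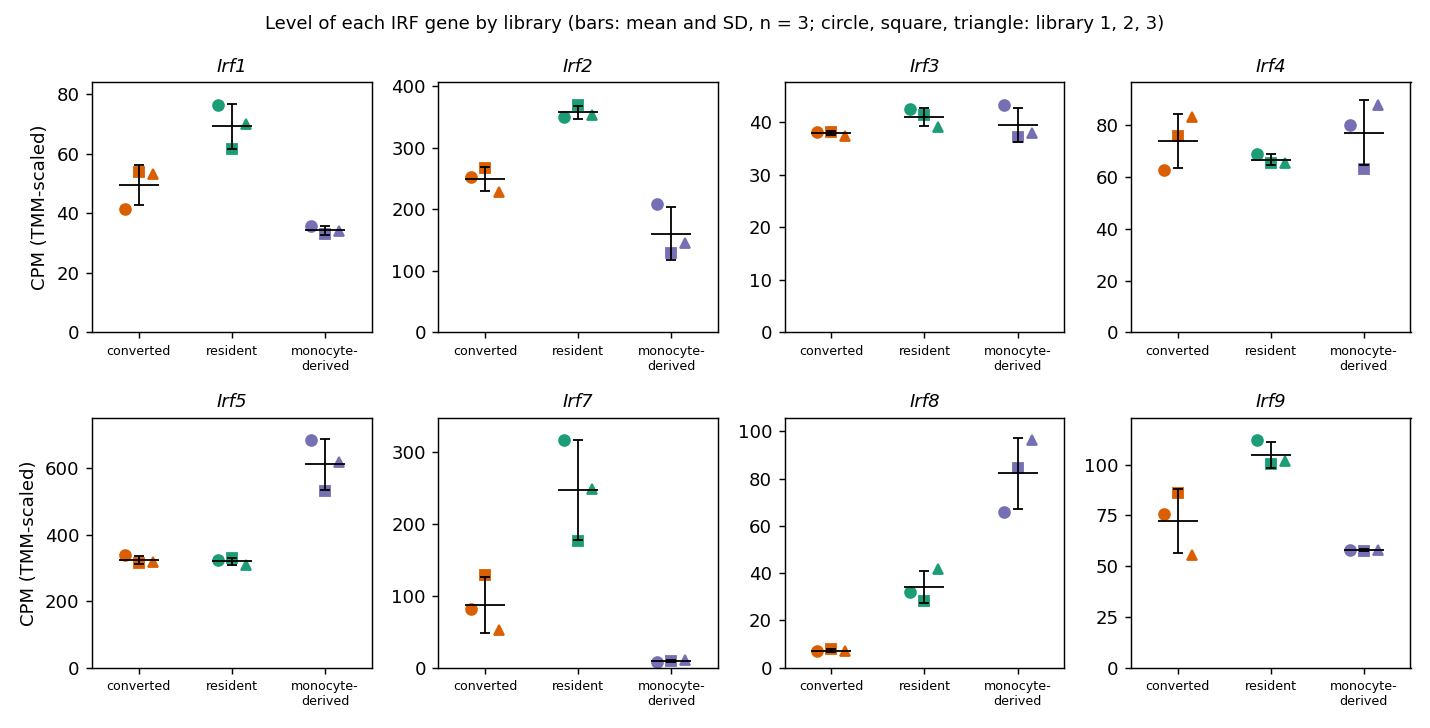
Level of each family member in CPM (vertical axes from 0, 1 panel per gene) by population, with a point per library and bars for the mean and SD of 3 libraries. Irf7 and Irf8 spread most by fold, at 87.9, 247.1 and 9.56 CPM and at 7.28, 34.1 and 82.2 CPM in converted, resident and monocyte-derived libraries.

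Comparisons used edgeR's quasi-likelihood test in 1 fit of all 9 libraries, with Benjamini-Hochberg adjustment over the 13223 genes and a call at an adjusted p under 0.05; errors on log2 fold changes are standard errors. Whether libraries 1 to 3 of a population are separate mice is not stated, so the p-values describe library-to-library spread that may be technical only. In converted against monocyte-derived libraries 3 members were higher (Irf1, Irf2 and Irf7), 2 lower (Irf5 and Irf8) and 3 not called. Of all genes tested there, 50.7% were called, 25.8% higher and 24.9% lower, so 5 of 8 members is near the share of the whole table. In resident against monocyte-derived libraries 4 members were higher, with Irf9 added, and 2 lower, beside 50.7% of all genes called, 25.7% higher and 24.9% lower. In converted against resident libraries 3 members were lower (Irf1, Irf7 and Irf8) and none was higher, beside 6.07% of all genes called, 1.82% higher and 4.26% lower. That count of 3 was 1 without converted library 1 or 3 or resident library 1 or 3, 2 without resident library 2, and 5 without monocyte-derived library 1. Median log2 fold changes of the 8 members were 0.13, 0.45 and -0.50 in the 3 comparisons as listed, beside medians of -0.012, 0.00068 and 0.0066 over all genes tested.

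**Figure D2:**
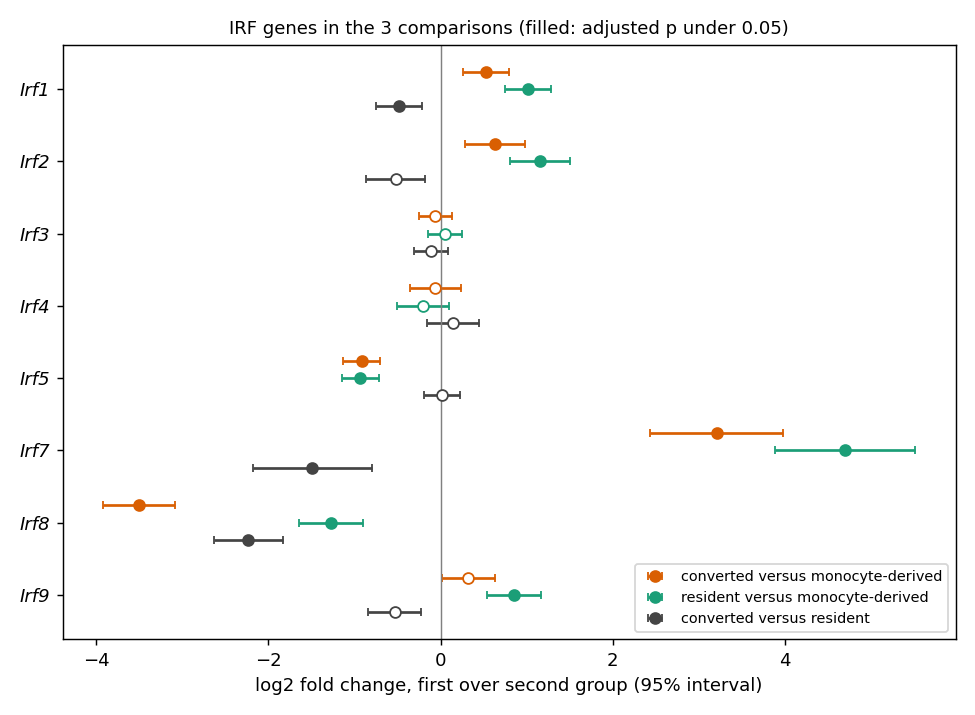
Log2 fold change of each member in the 3 comparisons, with bars for the 95% confidence interval and filled points for an adjusted p under 0.05 (edgeR quasi-likelihood test). Irf7 stands at 3.20 and 4.69 and Irf8 at -3.50 and -1.27 against monocyte-derived libraries, and no member lies above 0.15 in converted against resident libraries.

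Irf7 (ENSMUSG00000025498, GRCm38 chr7:141262706-141266481, minus strand), the factor that amplifies interferon alpha production and is itself induced by interferon, had 82.2, 129.3 and 52.2 CPM in converted libraries 1 to 3, 316.1, 176.9 and 248.2 CPM in resident libraries, and 8.32, 9.60 and 10.7 CPM in monocyte-derived libraries. No library of one population overlapped with another population. Irf7 was 9.21-fold higher in converted than in monocyte-derived libraries (log2 3.20 ± 0.34, adjusted p = 5.49e-05) and 25.9-fold higher in resident than in monocyte-derived libraries (log2 4.69 ± 0.36, adjusted p = 6.74e-06), the largest change of any member in each of these comparisons save for Irf8 in the first. Converted libraries were 2.81-fold lower than resident ones (log2 -1.49 ± 0.31, adjusted p = 0.0234). This last call ended without converted library 1 or 3 (adjusted p = 0.0907 and 0.0548) or resident library 1 or 3 (0.0992 and 0.0822), when genes with a single read were kept (0.125), and in a fit of these populations alone (0.0673). A replicate block, which adds a term for library number to the fit, ended it too.

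Irf3 (ENSMUSG00000003184, chr7:44997648-45002848, plus strand), the constitutively made partner of Irf7 in interferon induction, hardly varied. It had 38.2, 38.1 and 37.4 CPM in converted, 42.5, 41.4 and 39.1 CPM in resident, and 43.3, 37.2 and 37.9 CPM in monocyte-derived libraries. Its log2 fold changes were -0.059 (95% interval -0.25 to 0.14) for converted against monocyte-derived, 0.055 (-0.14 to 0.25) for resident against monocyte-derived and -0.11 (-0.31 to 0.082) for converted against resident libraries, with adjusted p values of 0.606, 0.631 and 0.513. All 3 intervals lay within 0.31 of no change on the log2 scale. Every resident library was above every converted one, though the test did not call this difference. The ratio of Irf7 to Irf3, from TPM, a level that corrects for exon length, was 1.96, 3.09 and 1.27 in converted, 6.78, 3.89 and 5.78 in resident, and 0.175, 0.235 and 0.259 in monocyte-derived libraries. Irf7 thus exceeded Irf3 in every converted and resident library and was below it in every monocyte-derived one, and each pair of populations had exact p = 0.1 (two-sided permutation), the smallest that 3 against 3 libraries allow.

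Irf9 (ENSMUSG00000002325, chr14:55603571-55610030, plus strand), the DNA-binding subunit of ISGF3, had 75.7, 85.8 and 55.3 CPM in converted libraries, 111.8, 100.1 and 101.6 CPM in resident libraries, and 58.1, 57.2 and 58.0 CPM in monocyte-derived libraries. Resident libraries stood above all others, and converted library 3 fell just below the monocyte-derived ones. Irf9 was 1.81-fold higher in resident than in monocyte-derived libraries (log2 0.85 ± 0.14, adjusted p = 0.000613). Against the same libraries, the converted ones gave a log2 fold change of 0.32 ± 0.14 (95% interval 0.014 to 0.63) that did not pass (adjusted p = 0.077); without converted library 3 it was 0.49 with an adjusted p of 0.00276. The difference of converted from resident libraries, log2 -0.53 ± 0.14 (-0.84 to -0.22), missed the threshold at an adjusted p of 0.052, and was called by DESeq2 (0.0115), by limma-voom (0.0415), and without converted library 2 (0.0278) or monocyte-derived library 1 (0.0344).

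Stat2, the ISGF3 subunit that binds Irf9, averaged 32.3 ± 5.32 CPM in converted, 80.3 ± 7.76 CPM in resident and 37.0 CPM in monocyte-derived libraries, and was lower in converted than in resident libraries (log2 -1.31, adjusted p = 0.00111). Its log2 fold change in converted against monocyte-derived libraries was -0.20 (adjusted p = 0.258), and it was higher in resident than in monocyte-derived libraries (1.12, adjusted p = 0.000102).

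A list of 25 genes known to be induced through ISGF3 held 24 tested genes. In converted against monocyte-derived libraries 16 were higher and none lower, among them the viral RNA sensors Oas2 and Oas3, with log2 changes of 4.14 and 3.45. In resident against monocyte-derived libraries all 24 were higher, with Oas2 at 90.3 CPM in resident and 2.10 CPM in monocyte-derived libraries. In converted against resident libraries 10 were lower and none higher, among them Ifit1, a translation inhibitor (2.93 CPM in converted, 11.9 CPM in resident libraries), and Isg15, a ubiquitin-like modifier (9.25 CPM in converted, 23.5 CPM in resident libraries). List medians were log2 1.15, 2.43 and -1.03 in the order of these comparisons. Shares of all genes tested in that order were 25.8%, 25.7% and 1.82% higher, and 24.9%, 24.9% and 4.26% lower. The count of 10 rested on single libraries: it was 0 without converted library 1, resident library 1 or resident library 3, 2 without converted library 3 and 6 without resident library 2. Over all single omissions it ran from 0 to 14. The calls of Ifit1 and Isg15 were lost without converted library 1 or 3 or resident library 1 or 3, at adjusted p values of 0.0848 to 0.129 for Ifit1 and 0.073 to 0.121 for Isg15.

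Summed over the 25 genes, the level was 641.5, 918.0 and 479.0 CPM in converted libraries 1 to 3, 1425, 1092 and 1286 CPM in resident libraries, and 262.8, 354.2 and 314.0 CPM in monocyte-derived libraries. The populations did not overlap. Within converted libraries, library 2 was highest and library 3 lowest for this sum, for Irf7 and for Irf9. Within resident libraries, library 1 was highest and library 2 lowest for the same 3 measures, so these members and the induced genes ranked the libraries alike in both populations. Monocyte-derived libraries did not share one order: library 2 was highest for the sum and lowest for Irf9, and library 3 was highest for Irf7. With 3 libraries in a population this ordering is a description.

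**Figure D3:**
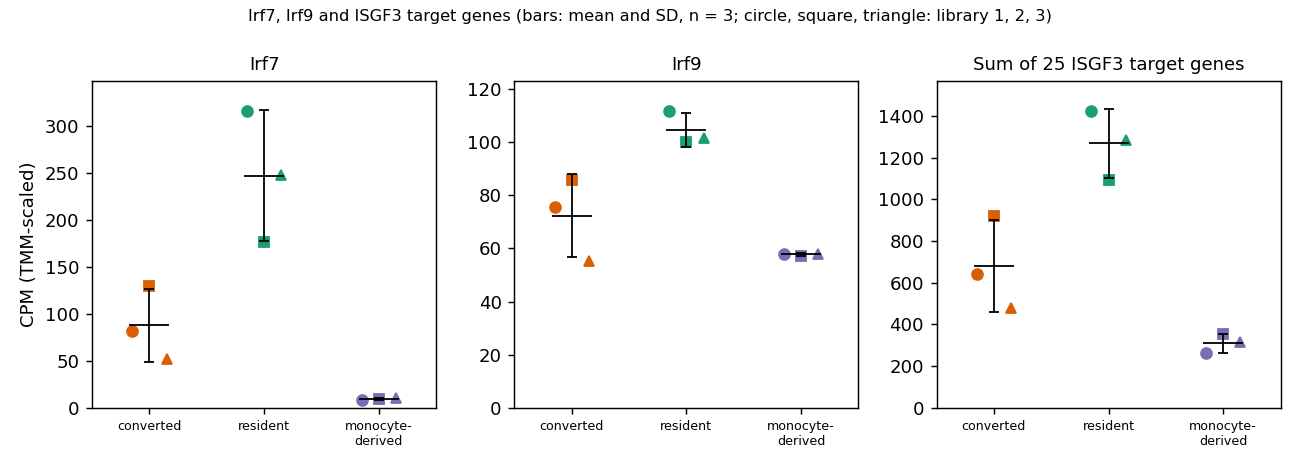
Levels of Irf7, Irf9 and the sum of the 25 ISGF3 target genes in CPM by population, with a point shape for libraries 1, 2 and 3 and bars for the mean and SD. For the sum, converted libraries lie at 479.0 to 918.0 CPM, resident at 1092 to 1425 CPM and monocyte-derived at 262.8 to 354.2 CPM.

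Irf1 (ENSMUSG00000018899, chr11:53770014-53778374, plus strand), the activator that carries the STAT-type match shown above, had 41.5, 53.6 and 53.1 CPM in converted, 76.3, 61.4 and 69.8 CPM in resident, and 35.7, 32.9 and 34.1 CPM in monocyte-derived libraries. The 3 populations followed one another without overlap. Irf1 was 1.44-fold higher in converted than in monocyte-derived libraries (log2 0.53 ± 0.12, adjusted p = 0.0045) and 2.02-fold higher in resident than in monocyte-derived libraries (1.01 ± 0.12, adjusted p = 8.41e-05). It was 1.40-fold lower in converted than in resident libraries (-0.49 ± 0.12, adjusted p = 0.0425). That call was lost on leaving out any converted library (adjusted p = 0.127, 0.0641 and 0.0822 for libraries 1 to 3) or any resident library (0.194, 0.0539 and 0.154), and with library sizes taken as total reads (0.0571). The replicate block lost it too.

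Irf2 (ENSMUSG00000031627, chr8:46739732-46847458, plus strand), the antagonist of Irf1 at shared sites and the member with all 3 kinds of match in its window, had 252.7, 266.1 and 227.9 CPM in converted, 349.6, 369.1 and 353.5 CPM in resident, and 208.5, 128.1 and 145.0 CPM in monocyte-derived libraries. Monocyte-derived libraries varied most, and again no population overlapped another. Irf2 was 1.55-fold higher in converted than in monocyte-derived libraries (log2 0.63 ± 0.16, adjusted p = 0.00702) and 2.23-fold higher in resident than in monocyte-derived libraries (1.15 ± 0.16, adjusted p = 0.000203). Between converted and resident libraries the log2 fold change was -0.52 ± 0.16 (95% interval -0.87 to -0.17) and did not pass (adjusted p = 0.0838), but did with DESeq2 (0.0277), in a fit of these populations alone (0.00104), and without monocyte-derived library 1 (0.00282) or 2 (0.0415).

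The log2 ratio of Irf1 to Irf2, on TPM, was -1.44 ± 0.25 in converted, -1.48 ± 0.20 in resident and -1.30 ± 0.31 in monocyte-derived libraries (SD, n = 3 each). Libraries overlapped in all 3 comparisons (exact two-sided permutation p = 0.5 for converted against monocyte-derived, 0.4 for resident against monocyte-derived and 0.8 for converted against resident). No p below 0.1 is possible in this design, so these values do not show that the ratios are alike.

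Targets of Irf1, in a list of 23 genes with 22 tested, did not move one way. Across all genes tested, 25.8% were higher and 24.9% lower in converted than in monocyte-derived libraries. The shares were 25.7% and 24.9% for resident against monocyte-derived libraries, and 1.82% and 4.26% for converted against resident libraries. In converted against monocyte-derived libraries 10 were higher and 6 lower, with a median log2 fold change of 0.10. The guanylate-binding protein genes Gbp3 and Gbp5, which act against intracellular pathogens, were higher (312.2 CPM in converted and 12.3 CPM in monocyte-derived libraries for Gbp3, log2 4.66), while Ciita, the master activator of MHC class II genes, and Socs1, which blocks JAK signalling, were lower (15.6 CPM in converted and 82.1 CPM in monocyte-derived libraries for Ciita, log2 -2.40). In resident against monocyte-derived libraries 12 were higher and 5 lower, at a median of 0.49, with Gbp3 at 258.4 CPM in resident and 12.3 CPM in monocyte-derived libraries. The lower count of 5 was 2 without resident library 2 or 3 and 3 without monocyte-derived library 1. In converted against resident libraries 2 were lower, Ciita (log2 -1.28, adjusted p = 0.0144) and the MHC class I light chain gene B2m (-0.74, adjusted p = 0.0114). Without any one of the converted libraries or resident library 3 Ciita had an adjusted p of 0.0514 to 0.0679, and without converted library 1 or 3 or resident library 1 or 3 B2m had 0.0503 to 0.0622. The count of 2 was 0 without converted library 1 or 3 or resident library 3, 1 without resident library 1, 4 without converted library 2, and 6 without monocyte-derived library 1, and DESeq2 gave 9.

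Irf5 (ENSMUSG00000029771, chr6:29526625-29541871, plus strand), which acts with Myd88 in inflammatory macrophages, had 338.0, 314.4 and 318.9 CPM in converted, 322.9, 329.2 and 308.5 CPM in resident, and 683.1, 531.9 and 617.7 CPM in monocyte-derived libraries. Converted and resident libraries intermingled, and every monocyte-derived library was above them. Irf5 was 1.89-fold lower in converted than in monocyte-derived libraries (log2 -0.92 ± 0.10, adjusted p = 3.63e-05) and 1.91-fold lower in resident than in monocyte-derived libraries (-0.93 ± 0.10, adjusted p = 3.28e-05). Between converted and resident libraries its log2 fold change was 0.016, with a 95% interval of -0.20 to 0.23. An antisense gene, Tnpo3, covers 14.1% of the exon bases of Irf5, and without a stated strand setting reads there cannot be assigned with certainty.

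Irf4 (ENSMUSG00000021356, chr13:30749226-30766976, plus strand), which is induced by IL-4 and needed for alternative activation, had 62.5, 75.9 and 83.2 CPM in converted, 69.0, 65.6 and 65.4 CPM in resident, and 80.1, 63.2 and 87.7 CPM in monocyte-derived libraries. All populations overlapped. Log2 fold changes were -0.060 (95% interval -0.36 to 0.24) for converted against monocyte-derived, -0.21 (-0.51 to 0.093) for resident against monocyte-derived and 0.15 (-0.15 to 0.45) for converted against resident libraries, and none passed. All mice had received IL-4 complexes, so these libraries hold no level without IL-4. Plasma cells express Irf4 too, and a list of 6 plasma cell genes summed to 322.4 CPM in converted, 319.4 CPM in resident and 680.7 CPM in monocyte-derived libraries. Most of each sum was Xbp1, which is not particular to plasma cells, at 313.9, 285.9 and 583.0 CPM in that order. Sdc1 and Prdm1 were also highest in monocyte-derived libraries, at 6.22, 4.92 and 92.3 CPM and at 0.053, 0.850 and 4.42 CPM in that order. Mzb1 ran otherwise, at 2.02 CPM in converted, 27.3 CPM in resident and 0.730 CPM in monocyte-derived libraries. Jchain and Tnfrsf17 were under 1 CPM in every population. The part of plasma cells in the Irf4 level was not tested. The log2 ratio of Irf4 to Irf5, both of which bind Myd88, was -2.90 ± 0.26 in converted, -3.02 ± 0.056 in resident and -3.75 ± 0.15 in monocyte-derived libraries (SD on TPM, n = 3 each). Every converted and every resident library was above every monocyte-derived one (exact permutation p = 0.1 for each, the smallest possible), while converted and resident libraries overlapped (p = 0.5).

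Irf8 (ENSMUSG00000041515, chr8:120736358-120756694, plus strand), which directs monocyte and dendritic cell development with the ETS factor PU.1, had 7.03, 7.83 and 6.98 CPM in converted, 32.2, 28.4 and 41.8 CPM in resident, and 66.1, 84.5 and 96.2 CPM in monocyte-derived libraries. The 3 populations were clear of one another, and the converted libraries lay closest together. Irf8 was 11.3-fold lower in converted than in monocyte-derived libraries (log2 -3.50 ± 0.19, adjusted p = 4.09e-07), 2.41-fold lower in resident than in monocyte-derived libraries (-1.27 ± 0.17, adjusted p = 0.000163) and 4.69-fold lower in converted than in resident libraries (-2.23 ± 0.18, adjusted p = 0.000601). The last was the one member call between converted and resident libraries that held under every alternative, with log2 fold changes of -2.35 to -2.06 when single libraries were left out.

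B cells and dendritic cells also express Irf8, and their markers differed between the same libraries. A list of 16 B-cell genes summed to 145.9, 290.7 and 159.2 CPM in converted, 1581, 1724 and 2058 CPM in resident, and 61.2, 48.5 and 103.2 CPM in monocyte-derived libraries, with 15 of 16 called lower in converted than in resident libraries and none at 0 in any population. Of all genes tested, 4.26% were lower in that comparison. The highest B-cell gene, Ighm, averaged 42.1 CPM in converted, 545.4 CPM in resident and 33.4 CPM in monocyte-derived libraries. Irf8 and the B-cell sum were both lower in converted than in resident libraries, and in monocyte-derived libraries Irf8 was at its highest and the B-cell sum at its lowest. A list of 12 dendritic cell genes summed to 65.7 ± 27.5 CPM in converted, 204.6 ± 9.52 CPM in resident and 145.4 ± 30.7 CPM in monocyte-derived libraries (SD, n = 3 each), led by Cd209a in converted and resident libraries and by Batf3 in monocyte-derived ones, with Kit at 0 in converted libraries. Cd209a alone gave 172.0 CPM of the resident sum, and averaged 48.6 CPM in converted and 20.1 CPM in monocyte-derived libraries. Of 11 dendritic cell genes tested, 8 were lower and none higher in converted than in monocyte-derived libraries. In resident against monocyte-derived libraries 4 were lower and 1 higher, and in converted against resident libraries 2 were lower and none higher. Among all genes tested, 24.9%, 24.9% and 4.26% were lower and 25.8%, 25.7% and 1.82% higher in the order of these comparisons. A list of T and NK cell genes summed to 8.61 ± 3.43, 62.1 ± 11.2 and 60.1 ± 54.4 CPM in the order converted, resident and monocyte-derived. That sum was 22.7, 35.1 and 122.6 CPM in monocyte-derived libraries 1 to 3. Neutrophil genes summed to 14.5 ± 4.85, 17.7 ± 0.403 and 87.8 ± 25.3 CPM in the same order of populations (SD, n = 3 each). The part of these cells in the Irf8 differences was not tested.

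Irf4 and Irf8 are close relatives that both pair with PU.1, and their ratio separated all populations. Per exon length, Irf4 exceeded Irf8 by 12.8, 13.95 and 17.2 times in converted libraries, by 3.08, 3.32 and 2.25 times in resident libraries, and by 1.74, 1.08 and 1.31 times in monocyte-derived libraries. No libraries overlapped between populations (exact permutation p = 0.1 for each pair, the smallest possible). In the fit across genes Irf8 was called in every comparison and Irf4 in none, which does not show that Irf4 was alike between populations.

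A list of 23 partners and regulators of the family was also counted. In converted against monocyte-derived libraries 6 were higher and 7 lower, near the 25.8% and 24.9% of all genes tested. In resident against monocyte-derived libraries 9 were higher and 7 lower, beside 25.7% and 24.9% of all genes. Batf3, which cooperates with Irf8 in dendritic cells, averaged 10.4 CPM in converted, 10.1 CPM in resident and 79.5 CPM in monocyte-derived libraries. Spi1, which encodes PU.1, had log2 changes of 0.014, 0.12 and -0.11 in the 3 comparisons and was called in none. Kdm6b, a histone demethylase that acts upstream of Irf4, was lower in converted (log2 -1.70, adjusted p = 0.000532) and in resident (-1.14, adjusted p = 0.0048) than in monocyte-derived libraries, where Irf4 itself was not called; these and Spi1 were chosen for their known roles after values were seen. In converted against resident libraries 3 partners were lower and none higher, beside 4.26% and 1.82% of all genes. Among the 3 were Ikzf3 (1.71 CPM in converted, 25.4 CPM in resident libraries) and Spib (2.60 CPM in converted, 25.3 CPM in resident libraries). Ikzf3 and Spib are also factors of B lymphocytes and moved with the B-cell sum above. The part of B cells in their differences was not tested.

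Upstream of the family, a list of 30 sensors and adaptors held 29 tested genes, of which 7 were higher and 11 lower in converted than in monocyte-derived libraries, and 6 higher and 12 lower in resident than in monocyte-derived libraries. Among all genes tested, 25.8% were higher and 24.9% lower in the first comparison, and 25.7% and 24.9% in the second. Between converted and resident libraries, 1.82% were higher and 4.26% lower. The cytosolic RNA sensor Ddx58 averaged 40.2 CPM in converted, 67.7 CPM in resident and 17.5 CPM in monocyte-derived libraries. The DNA-sensing adaptor Tmem173 (STING) ran the other way against monocyte-derived libraries, at 15.1 CPM in converted, 23.1 CPM in resident and 99.9 CPM in monocyte-derived libraries. Its mean, like that of Ddx58, was lower in converted than in resident libraries. In converted against resident libraries 3 were lower, among them Ddx58 (log2 -0.75, adjusted p = 0.00883) and its relative Dhx58 (-0.83, adjusted p = 0.0435), and 1 was higher, the endosomal RNA receptor Tlr13 (0.57, adjusted p = 0.0324). The lower count was 0 without resident library 3, 2 without converted library 2, and 1 without any one of the other converted or resident libraries. Ddx58 lost its call without resident library 3 (adjusted p = 0.0558). Tlr13 and Dhx58 lost theirs without converted library 1 or 3 or any resident library (0.0606 to 0.148 and 0.0581 to 0.187), and Dhx58 also without monocyte-derived library 3 (0.0514).

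Of 18 receptor and JAK-STAT genes, 4 were higher and 9 lower in converted than in monocyte-derived libraries, and 6 were higher and 8 lower in resident than in monocyte-derived libraries, where the 6 became 3 with library sizes taken as total reads. Beside these counts, 25.8% of all genes tested were higher and 24.9% lower for converted, and 25.7% and 24.9% for resident libraries. In converted against resident libraries 1.82% were higher and 4.26% lower. The receptor gene Ifngr1 averaged 151.0 CPM in resident and 582.4 CPM in monocyte-derived libraries (log2 -1.95), and Socs1 averaged 22.4 CPM in converted, 29.7 CPM in resident and 147.0 CPM in monocyte-derived libraries. Between converted and resident libraries 2 were lower, Stat2 and Usp18, a protease that removes Isg15 and restrains the interferon receptor (13.8 CPM in converted, 41.8 CPM in resident libraries; log2 -1.60, adjusted p = 0.00904). Interferon genes themselves were scarcely read. Of 14 in the list, 4 had any read over the 9 libraries: Ifng had 101, Ifnk 4, Ifnz 3 and Ifnb1 1, and Ifng, a product of T and NK cells, was the one tested.

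**Figure D4:**
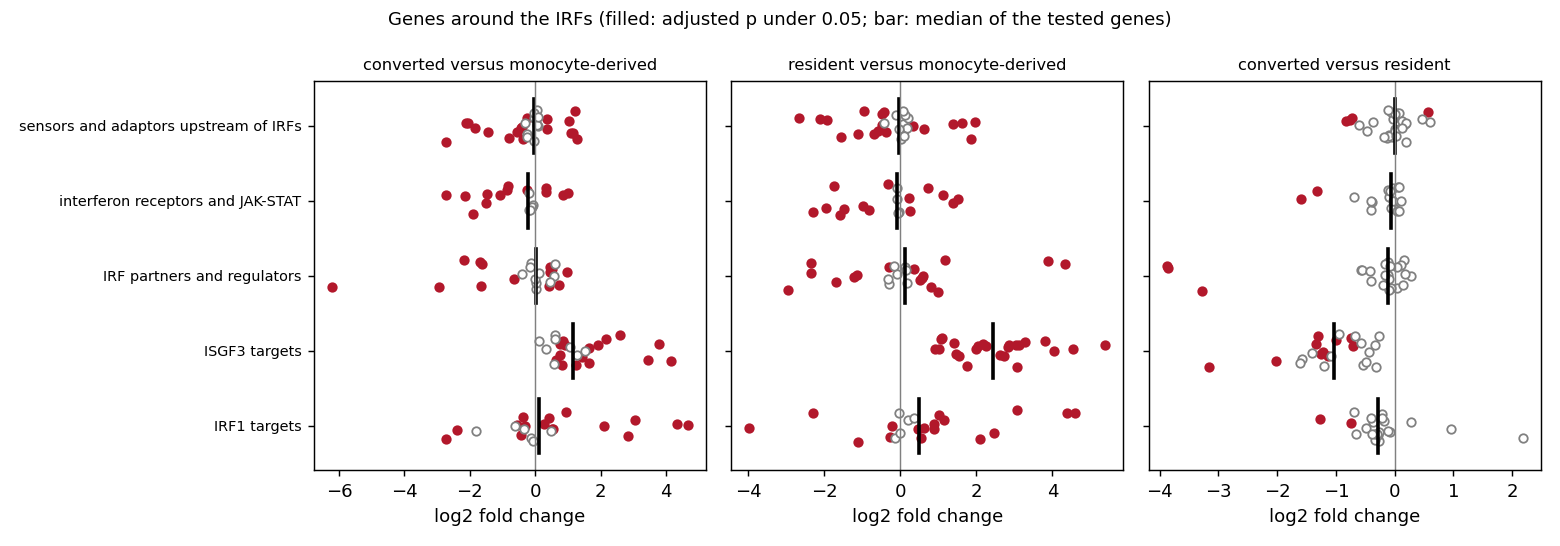
Log2 fold change of each tested gene of the 5 pathway lists in the 3 comparisons, with filled points for an adjusted p under 0.05 (edgeR quasi-likelihood test) and a vertical bar at the list median. The ISGF3 targets have medians of 1.15 and 2.43 against monocyte-derived libraries and of -1.03 in converted against resident libraries.

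Levels between members were compared per exon length. Irf5 was the most abundant member in each population, with a mean of 261.3 ± 13.7 TPM in converted, 241.9 ± 10.8 TPM in resident and 564.1 ± 129.5 TPM in monocyte-derived libraries (SD, n = 3 each). In converted libraries it was followed by Irf2 at 79.2 ± 10.7 TPM and Irf7 at 55.6 ± 28.0 TPM, and then by Irf4, Irf9, Irf1 and Irf3, whose means of 35.4, 31.7, 29.2 and 25.8 TPM lay within the spread of Irf9 (8.53 TPM) of their nearest neighbour. In resident libraries Irf7 came next at 143.1 ± 38.1 TPM, within its own spread of Irf2 at 106.1 ± 4.92 TPM, and Irf9, Irf1, Irf4 and Irf3 followed at 42.6, 38.1, 29.8 and 26.1 TPM. In monocyte-derived libraries Irf2 had 58.7 ± 21.6 TPM and Irf4 42.1 ± 10.2 TPM, the means of Irf8, Irf3, Irf9 and Irf1 lay close together at 30.8, 30.6, 28.5 and 23.0 TPM, and Irf7 was last at 6.70 ± 0.875 TPM. Irf8 was last in converted libraries at 2.43 ± 0.312 TPM and in resident libraries at 10.6 ± 2.07 TPM.

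The make-up of the family changed with these levels. Irf5 made up 50.5 ± 3.96% of the summed TPM of the 8 members in converted, 38.0 ± 3.08% in resident and 71.8 ± 0.804% in monocyte-derived libraries. Irf7 made up 10.3 ± 3.96%, 22.3 ± 4.84% and 0.875 ± 0.169% in the same order, and Irf8 0.466 ± 0.0149%, 1.67 ± 0.347% and 4.04 ± 0.996%. For these 3 members no libraries overlapped between any populations (exact permutation p = 0.1 for each pair). The other members were free of overlap in most pairs too. Shares of Irf1, Irf2 and Irf9 overlapped between converted and resident libraries alone. Those of Irf3 overlapped between resident and monocyte-derived libraries alone, and those of Irf4 between converted and monocyte-derived libraries alone. Irf2 held 15.2 ± 0.268% in converted, 16.7 ± 1.57% in resident and 7.35 ± 1.18% in monocyte-derived libraries. Irf1 and Irf9 held 5.63 ± 0.874% and 6.02 ± 0.945% in converted, 5.96 ± 0.278% and 6.67 ± 0.111% in resident, and 2.96 ± 0.226% and 3.70 ± 0.401% in monocyte-derived libraries. Irf3 and Irf4 held 4.99 ± 0.280% and 6.84 ± 1.25% in converted, 4.10 ± 0.260% and 4.68 ± 0.198% in resident, and 3.93 ± 0.250% and 5.36 ± 0.578% in monocyte-derived libraries. These shares add to a whole within a library, so a larger share of one member lowers the others. The sum itself was 507.7, 591.2 and 463.0 TPM in converted, 676.8, 611.8 and 626.5 TPM in resident, and 948.0, 605.3 and 800.3 TPM in monocyte-derived libraries, with monocyte-derived library 2 below every resident library and every converted library below all others.

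**Figure D5:**
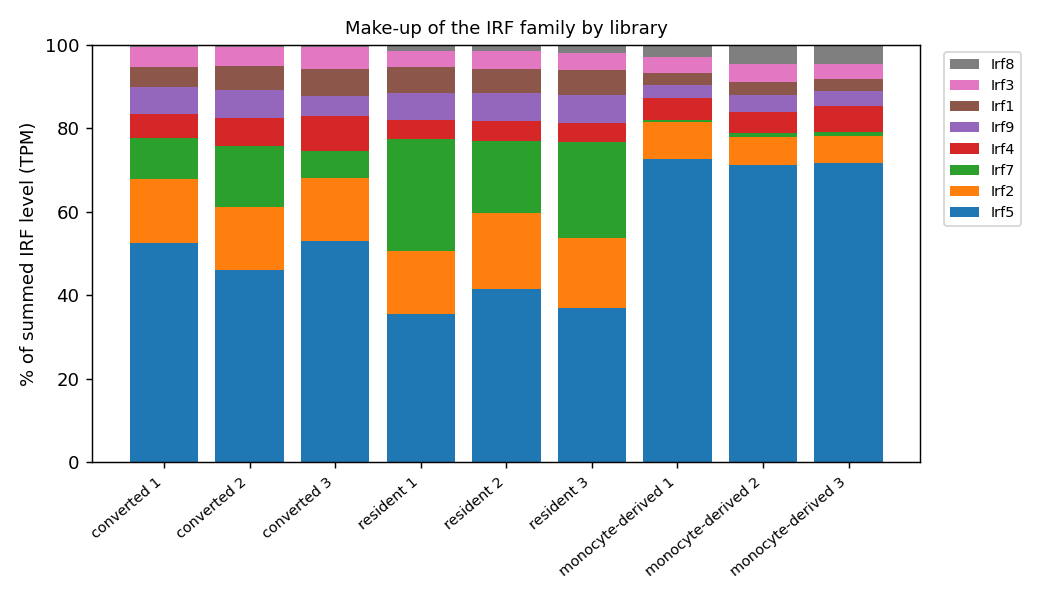
Share of each member in the summed TPM of the 8 genes, in percent, as a stacked bar per library. Irf5 takes 50.5% in converted, 38.0% in resident and 71.8% in monocyte-derived libraries on average, and Irf7 10.3%, 22.3% and 0.875%.

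Genes with the most similar course over the 9 libraries were found among 8347 protein-coding genes by the root-mean-square difference of centred log2 CPM, where 0 is an identical course. Nearest to Irf9 were Ifi35, Adar and Trafd1, all known interferon-stimulated genes, at 0.10, 0.12 and 0.12. For Irf7, Plxdc2 and the interferon-stimulated Rtp4 and Oas3 were nearest at 0.53, 0.55 and 0.57. These distances grow with a gene's own range: the root-mean-square deviation of Irf7 about its mean was 1.97, against 0.39 for Irf9, so they do not rank the members by how well they were matched. Nearest to Irf1 were Nupr1, the immunoproteasome gene Psmb9 and Nuak2 at 0.13, 0.13 and 0.13. Rtp4 and Oas3 are members of the ISGF3 list and Psmb9 of the Irf1 target list.

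For Irf8 the nearest were Blnk, an adaptor of B cells and macrophages, Cyp4f18 and Atp8b2 at 0.31, 0.42 and 0.43, and for Irf2 they were Zfp512b, Ganc and Rassf5 at 0.14, 0.16 and 0.18. Irf5 ran closest to Socs6, Prcp and Trpm4 at 0.066, 0.075 and 0.079. Irf3 and Irf4, which varied little, were matched by other genes that varied little: Alg1, Sharpin and Rsrc2 at 0.048, 0.050 and 0.055 for Irf3, and Top3b, Nkapd1 and Efr3a at 0.079, 0.083 and 0.091 for Irf4.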

How the data were processed

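Each of the 9 libraries has a deposited table of raw counts by gene. TopHat2 2.1.0, HTSeq and the build GRCm38 are named in the submitters' processing notes; the sources used here give no annotation, strand setting or treatment of multiply aligned reads. Symbols and exon lengths came from GENCODE mouse release 21, prefixed M, which matched 47224 of 47729 identifiers. Lines that name no gene were left out; reads in no gene made up 4.02% to 5.66% and ambiguous reads 4.47% to 4.68%. 

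The counts went into edgeR 4.0.16 (with limma 3.58.1 in R 4.3.3) after filterByExpr at a minimum count of 10 and minimum total of 15, with TMM scaling and the robust quasi-likelihood F-test with 6 residual degrees of freedom. CPM used TMM-scaled library sizes. TPM was computed from union exon length, which overlaps other genes by 0% to 3.4% in members other than Irf5. Shares and ratios were tested by exact two-sided permutation over libraries (scipy 1.17.1). The scripts were tested on simulated counts. Replicate libraries differed beyond the sampling noise of reads in every pair (chi-square per degree of freedom 5.51 or more), and each was counted as a library. This difference does not show whether the libraries came from separate mice.

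Members and gene lists were chosen with earlier results of these data known. Named genes were all members; from each pathway list, up to 2 called genes per direction and comparison with the largest change and at least 10 CPM; and 3 nearest genes per member among protein-coding genes with a mean of at least 10 CPM (log2 CPM with prior count 2). Cell type markers, Stat2 across all pairs, Kdm6b, Spi1 and the sex-linked genes were added for their roles. As alternatives, the tests were repeated with DESeq2 1.42.0 and limma-voom, total-read and other scaling, looser and stricter filters, the protein-coding genes only, 2-group fits, a replicate block and each library left out. A comparison of member proteins was not made. Some results are not reported here.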

Additional observations from a re-analysis of the deposited data

How the results depend on the processing

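Over 24 member comparisons and 432 alternative values, 395 kept direction and side of the threshold, 15 lost the call, 14 gained it and 8 changed sign; the cause was not tested. In converted against resident libraries 3 members were called, but 5 with DESeq2, 1 with the replicate block and 1 to 5 with single libraries left out. Against monocyte-derived libraries single omissions gave 5 to 6 members for converted and 6 for resident libraries. Genes called in converted against resident libraries numbered 803 (240 higher, 563 lower), 1364 with DESeq2, 2067 in the 2-group fit (900 higher, 1167 lower), 669 with total reads (126 higher, 543 lower), 530 with the replicate block (115 higher, 415 lower) and 245 (without resident library 3) to 1628 (without monocyte-derived library 1) with single omissions. Single omissions gave 5886 to 6845 genes for converted and 5680 to 6875 for resident against monocyte-derived libraries. With total reads, converted against monocyte-derived libraries had 3049 genes higher and 3522 lower, beside 3416 and 3287.

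Same-numbered libraries deviated with correlations of -0.0939 to 0.0651, so the numbers were not taken to pair libraries; with the replicate block Irf1 and Irf7 in converted against resident libraries had adjusted p = 0.0905 and 0.0518, and 3 ISGF3 targets were called. List counts and named list genes were recomputed as alternatives chosen after seeing the data: 2-group fits called 12 Irf1 targets lower in converted than in resident libraries. The calls of Tlr13, Dhx58, Ddx58, Ifit1, Isg15, Ciita and B2m there were each lost without at least one library, and those of Stat2, Usp18, Ikzf3 and Spib were kept.

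Sign changes concerned values near 0. With single libraries left out, the log2 fold change of Irf3 in converted against monocyte-derived libraries ran from -0.097 to 0.014 (without monocyte-derived library 1) and that of Irf4 from -0.18 to 0.054 (without converted library 1; 0.044 without monocyte-derived library 3). That of Irf5 in converted against resident libraries ran from -0.014 (without converted library 1) to 0.039, and was -0.0072 with total reads, -0.00067 with protein-coding genes alone and -0.0042 in the 2-group fit. In the same comparison the log2 ratio of Irf1 to Irf2 differed by -0.083 to 0.17 and the share of Irf1 by -0.743 to 0.127 percentage points. The share of Irf3 in resident against monocyte-derived libraries differed by -0.382 points on CPM. Irf9 was called in converted against monocyte-derived libraries when genes with at least 1 read were kept (adjusted p = 0.0453). For shares and ratios, 3 libraries a population allow an exact permutation p of 0.1 at the smallest.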
